A study of Homo sapiens with 12 samples.

Results

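The genes described here are 9 of the 58288 genes in the deposited count table: SLC2A1, SLC2A3, SLC2A5, SLC2A6, SLC2A8, SLC2A9, SLC2A13 and SLC2A14, which encode 8 members of the facilitative hexose transporter (GLUT) family, and SLC2A4RG. They were taken by symbol, and the set was chosen by the granulocyte fold change of SLC2A6, which is among the largest increases with TNF-α, so the TNF-α response of granulocytes is given below for these 9 genes as a description, without a p-value. SLC2A4RG shares the family's prefix but encodes a DNA-binding regulator named after the SLC2A4 gene, not a transporter. The libraries came from HL-60/S4, an established human promyelocytic leukemia cell line, and each of 4 groups held 3 libraries, 1 per flask, all from cells of 1 seed lot at passage 8 in calcium-supplemented medium. Promyelocytes were undifferentiated cells, and granulocytes were cells given 1 µM all trans retinoic acid (ATRA) for 4 days. Each cell type received TNF-α at 16 ng/mL or the same volume of water (vehicle) for 2 h. The replicates are flasks of 1 cell line, so the p-values measure the spread between flasks. The 2 cell types were handled in separate experiments, so in any contrast of levels between them cell type and experiment cannot be told apart.

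GLUT proteins let sugars cross membranes down their concentration gradient, without using energy. SLC2A1 (GLUT1) and SLC2A3 (GLUT3) are the glucose transporters of the plasma membrane in most blood cells, and SLC2A5 (GLUT5) carries fructose. SLC2A6 (GLUT6) and SLC2A8 (GLUT8) are held mainly inside the cell, SLC2A6 on lysosomes. SLC2A9 (GLUT9) carries urate, SLC2A13 (HMIT) couples myo-inositol to protons, and SLC2A14 (GLUT14) is a close duplicate of SLC2A3. Neutrophils, the mature granulocytes, draw much of their energy from glycolysis, which glucose uptake feeds.

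In the deposited table (build hg38) SLC2A6 lies on the minus strand at chr9:133471095-133479137 and SLC2A8 on the plus strand of the same chromosome at chr9:127397138-127408424. SLC2A1 (chr1:42925375-42959173) and SLC2A5 (chr1:9035107-9088478) are on the minus strand of chromosome 1. SLC2A14 (chr12:7812512-7891148) and SLC2A3 (chr12:7919230-7936275) are neighbours on the minus strand, 28081 bases apart, and SLC2A13 (chr12:39755021-40106089, minus strand) is on the same chromosome. SLC2A9 is at chr4:9771153-10054936 on the minus strand and SLC2A4RG at chr20:63739861-63743505 on the plus strand. Between the longest coding sequences of SLC2A3 and SLC2A14 in the GENCODE annotation, 97.0% of 1488 aligned bases were identical, with an identical run of 137 bases. The other 27 pairs among the 8 transporters were 54.7% to 69.1% identical. Reads of SLC2A3 and SLC2A14 can therefore be assigned to the wrong copy, and the values of both are uncertain in this respect. Of the exonic bases, 2.31% in SLC2A1 and 0.98% in SLC2A4RG also belong to another gene on the same strand, whose shared read pairs the counting leaves out by default.

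The promoters of the genes whose RNA differed most between groups are printed here to show how unlike they are, as the 250 bases before the RefSeq start (GRCh38.p14), 5′ to 3′ on the strand of the gene. SLC2A6 (chr9:133479100-133479349) was raised most with TNF-α, SLC2A1 (chr1:42958869-42959118) was lowered most in granulocytes, and SLC2A5 (chr1:9069636-9069885) differed most between the cell types. The windows of SLC2A1 and SLC2A5 lie within the spans that the table gives these genes, and that of SLC2A6 overlaps the end of its span. Capitals mark a match to the NF-κB consensus.
SLC2A6: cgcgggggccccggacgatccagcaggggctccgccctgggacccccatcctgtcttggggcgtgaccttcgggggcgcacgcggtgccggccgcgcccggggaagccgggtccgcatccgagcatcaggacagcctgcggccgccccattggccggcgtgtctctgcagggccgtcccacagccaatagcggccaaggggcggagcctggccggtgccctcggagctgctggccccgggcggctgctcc
SLC2A1: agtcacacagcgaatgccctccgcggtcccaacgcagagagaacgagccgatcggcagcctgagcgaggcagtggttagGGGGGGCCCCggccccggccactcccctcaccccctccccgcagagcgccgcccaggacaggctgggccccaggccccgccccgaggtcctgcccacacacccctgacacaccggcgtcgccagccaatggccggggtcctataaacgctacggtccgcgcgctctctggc
SLC2A5: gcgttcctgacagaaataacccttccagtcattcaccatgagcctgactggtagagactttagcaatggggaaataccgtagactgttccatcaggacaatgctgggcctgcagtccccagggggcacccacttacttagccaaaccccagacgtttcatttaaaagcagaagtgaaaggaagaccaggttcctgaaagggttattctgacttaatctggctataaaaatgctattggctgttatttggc
G and C made up 76.8% of the SLC2A6 sequence, 72.4% of that of SLC2A1 and 46.8% of that of SLC2A5. Both strands of these windows were searched for the NF-κB consensus, for ACGTG and for TGANTCA. Of 35116 RefSeq promoters of this length, 9.96% held the NF-κB consensus, 18.5% held ACGTG and 6.57% held TGANTCA. Among the 8 members matched by symbol (9 entries, 2 of them for SLC2A9), the NF-κB consensus was found in SLC2A1, with its first base 171 bases before the start. ACGTG was found in SLC2A9, SLC2A13 and SLC2A14, and TGANTCA in none of the 9 entries. None of the 3 motifs was found in the window of SLC2A6 or SLC2A5, which says only that these letters are not in these 250 bases.

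Library totals ran from 22829189 to 31895061 read pairs on genes, so that 3 counts, taken here as the floor, stand for 0.0941 to 0.131 counts per 1000000 counts of the library (CPM). Levels are given as FPKM, read pairs per kilobase of exon scaled as CPM, with TMM library sizes, and as mean ± SD of 3 libraries. In these bulk samples fewer cells of a type and less RNA per cell cannot be told apart. The 6 promyelocyte markers checked, among them MPO, summed to 7782 to 8620 CPM in vehicle-treated promyelocytes and 2247 to 2465 CPM in vehicle-treated granulocytes, and the 7 granulocyte markers, among them ITGAM, to 156 to 164 and 4860 to 5142 CPM. The promyelocyte marker ELANE was at 0 to 3 read pairs in the granulocyte libraries. With TNF-α the granulocyte markers summed to 263 to 279 CPM in promyelocytes and 5586 to 5955 CPM in granulocytes. In promyelocytes CYBB and NCF1 rose, CSF3R fell, and ITGAM, FPR1, CD38 and TGM2 were not called (edgeR). In granulocytes NCF1, FPR1 and TGM2 rose and ITGAM, CSF3R and CD38 fell (edgeR), so the list did not move one way in either cell type. The promyelocyte markers summed with TNF-α to 6400 to 7295 CPM in promyelocytes and 2181 to 2387 CPM in granulocytes. In promyelocytes MPO, PRTN3, CTSG and MYB fell (edgeR adjusted p = 0.0155, 0.00785, 0.0414 and 2.85e-06). ELANE and AZU1 were not called there, with estimates of −0.59 and −0.14. In granulocytes MYB alone of the 5 tested fell, by 1.65 on the log2 scale (edgeR adjusted p = 8.91e-24). The part of these markers in the results below was not tested. The 8 monocyte and macrophage markers summed to 49.2 to 51.5 CPM in granulocytes with vehicle and 30.7 to 34.3 CPM with TNF-α, nearly all from CSF1R. In promyelocytes they summed to 2.99 to 4.80 CPM, and CD163 had at most 3 read pairs in any library. The 4 lymphoid markers summed to 9.36 to 15 CPM and the 3 erythroid and epithelial markers to 0.0671 to 0.261 CPM over the 4 groups.

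SLC2A6 RNA was near the floor without TNF-α in both cell types and far higher with it in both. In promyelocytes the 3 vehicle libraries held 13, 7 and 10 read pairs of SLC2A6, and the 3 TNF-α libraries 490, 565 and 656. In granulocytes there were 0, 6 and 6 read pairs with vehicle and 994, 1469 and 1226 with TNF-α. Every TNF-α library lay far above every vehicle library in both cell types. The level was 0.0968 ± 0.0236 FPKM in vehicle-treated and 5.58 ± 0.332 FPKM in TNF-α treated promyelocytes. In granulocytes it was 0.0377 ± 0.0326 FPKM with vehicle and 14.4 ± 1.54 FPKM with TNF-α (SD, n = 3 in each group).

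The log2 fold change of SLC2A6 in promyelocytes was 5.85 (SE 0.167), or 57.5-fold, with an adjusted p of 8.1e-16 (edgeR quasi-likelihood test, Benjamini-Hochberg adjustment over 16250 genes). The pooled read pairs, 30 with vehicle and 1711 with TNF-α, gave a normalized ratio of 57.3 with an exact 95% interval of 40.0 to 85.2, which covers counting error only. Even the lowest TNF-α library stood 43.4-fold above the highest vehicle library. In granulocytes the log2 fold change was 8.45 (SE 0.179), or 351-fold. There the pooled 12 and 3689 read pairs gave a ratio of 366 (interval 210 to 710), and the lowest TNF-α library stood 223-fold above the highest vehicle library. Without each granulocyte library in turn, the log2 value lay between 7.94 and 8.82. The edgeR SEs of SLC2A6 were computed as the log2 fold change over the square root of the test's F statistic. They were smaller than the counting error of so few vehicle read pairs. DESeq2 gave an SE of 0.29 in promyelocytes and 0.427 in granulocytes.

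Among the 4135 genes called higher with TNF-α in granulocytes, SLC2A6 was at place 4 by fold. Just above it were EBI3, a subunit of the cytokines IL-27 and IL-35, with 8.48 (SE 0.167), and RPS26P21, a ribosomal protein pseudogene, with 8.70 (SE 0.733). Just below it were IL1RN, the interleukin 1 receptor antagonist, with 8.38 (SE 0.222), and the chemokine CXCL10 with 8.36 (SE 0.793). RPS26P21 and CXCL10 had 0 read pairs in every vehicle library, so their fitted folds depend on the prior count and their place is not firm. The exact place of SLC2A6 is not firm either. It had 0 to 6 read pairs in the vehicle libraries, and its value ran from 7.94 to 8.82 with 1 library left out. In promyelocytes SLC2A6 was at place 10 of 1324 increases.

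The genes whose log2 CPM followed SLC2A6 most closely over the 12 libraries, among 18124 genes compared, were TNFAIP3 (Pearson r = 0.999), BIRC3 (0.997), NFKB2 (0.997), RELB (0.997) and TNFAIP6 (0.995). These values rest on the difference between the 6 vehicle and the 6 TNF-α libraries and are given without a p. TNFAIP3 moved from 35.4 to 431 CPM in promyelocytes and from 27.7 to 946 CPM in granulocytes.

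SLC2A1, the main glucose transporter of dividing cells, was lower with TNF-α in granulocytes. Its read pairs in granulocytes were 2999, 3581 and 3812 with vehicle and 811, 864 and 710 with TNF-α. All 3 TNF-α libraries lay well below all 3 vehicle libraries, and the level went from 25.5 ± 1.37 to 7.04 ± 0.640 FPKM. The log2 fold change was −1.88 (SE 0.0605), a level 3.67-fold lower, at place 107 of 4209 decreases. In promyelocytes the libraries held 2792, 2315 and 2294 read pairs with vehicle and 1991, 1928 and 2493 with TNF-α, or 18 ± 1.27 and 15.7 ± 1.04 FPKM. On the FPKM scale the groups did not overlap, but the log2 fold change of −0.18 (SE 0.0654, 95% interval −0.30 to −0.05) missed the threshold (edgeR adjusted p = 0.0805). It passed with all 12 libraries in 1 fit (adjusted p = 0.0398) and without the third TNF-α library (adjusted p = 0.0473), in a range of 0.0398 to 0.328 over the 12 alternatives. The genes closest to SLC2A1 over the 12 libraries were GFI1 (r = 0.981), CTR9 (0.977), RNF44 (0.973), RPAP2 (0.972) and OIP5-AS1 (0.969). GFI1, a transcriptional repressor with a role in granulocyte development, averaged 235 CPM in vehicle-treated and 51.5 CPM in TNF-α treated granulocytes.

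SLC2A3, a glucose transporter of high affinity, was also lower with TNF-α in granulocytes, by less. It had 1721, 2051 and 2213 read pairs with vehicle and 1015, 1317 and 929 with TNF-α, without overlap, and the level went from 11.3 ± 0.683 to 7.31 ± 0.437 FPKM. The log2 fold change was −0.64 (SE 0.0589), a level 1.56-fold lower. Promyelocytes held 992, 735 and 737 read pairs with vehicle and 826, 839 and 1037 with TNF-α. These groups overlapped, and the log2 fold change of 0.17 (SE 0.0817) did not pass (edgeR adjusted p = 0.195). Without the first vehicle library, the highest of its group, it was 0.27 with an adjusted p of 0.0406, in a range of 0.0406 to 0.510 over the alternatives. Closest to SLC2A3 in pattern were SLC39A9 (r = 0.994), PLXNB2 (0.988), FCGR1BP (0.985), CHMP1B (0.982) and the gene ENSG00000234282 (0.980). The last averaged 0.0558 CPM with vehicle and 0.105 CPM with TNF-α in promyelocytes, under the 0.5 CPM added before taking logs. These r values, like those of SLC2A1, rest on differences between the 4 groups, which include cell type and experiment, and are given without a p.

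SLC2A14, the duplicate of SLC2A3, was scarce. In promyelocytes it had 0, 2 and 0 read pairs with vehicle and 3, 0 and 1 with TNF-α, all at or under the floor, and it did not pass the filter on low counts. In granulocytes it had 4, 12 and 12 read pairs with vehicle and 15, 18 and 11 with TNF-α. On the FPKM scale the granulocyte groups did not overlap (0.0276 to 0.0722 against 0.0892 to 0.122), with a log2 fold change of 0.89 (SE 0.436). SLC2A3P2, a pseudogene copy, had 17 to 21 read pairs in vehicle-treated and 9 to 13 in TNF-α treated promyelocytes, and at most 9 in granulocyte libraries.

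SLC2A5, the fructose transporter, stood apart by cell type. Promyelocytes held 886, 735 and 724 read pairs with vehicle and 641, 705 and 870 with TNF-α. Granulocytes held 18881, 21553 and 22448 with vehicle and 14101, 17715 and 13093 with TNF-α. The mean level of vehicle-treated granulocytes, 109 ± 2.99 FPKM, was 27.1-fold that of vehicle-treated promyelocytes, 4.03 ± 0.295 FPKM. With TNF-α the levels were 92.9 ± 3.8 and 3.82 ± 0.252 FPKM, a ratio of 24.3. The TNF-α response was small beside this difference: −0.25 (SE 0.0499) in granulocytes, where the groups did not overlap on the FPKM scale, and −0.05 (SE 0.0777, edgeR adjusted p = 0.716) in promyelocytes, where they did.

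SLC2A8, the intracellular GLUT8, was at 127, 132 and 116 read pairs in vehicle-treated and 87, 104 and 120 in TNF-α treated promyelocytes. In granulocytes it was at 40, 33 and 54 read pairs with vehicle and 37, 41 and 35 with TNF-α, which overlap. The log2 fold change was −0.24 (SE 0.159) in promyelocytes, which did not pass (edgeR adjusted p = 0.355), and 0.07 (SE 0.258) in granulocytes. The urate transporter SLC2A9 had 40 to 72 read pairs in promyelocytes and 37 to 66 in granulocytes. Its log2 fold changes were alike in size, −0.39 (SE 0.218, edgeR adjusted p = 0.275) in promyelocytes and −0.34 (SE 0.224) in granulocytes, and on the FPKM scale TNF-α lay below vehicle without overlap in both cell types. SLC2A13, the inositol carrier, held 531 to 648 read pairs in promyelocyte and 242 to 428 in granulocyte libraries. It overlapped between vehicle and TNF-α in both, with log2 fold changes of 0.10 (SE 0.0834, edgeR adjusted p = 0.491) and −0.05 (SE 0.0994).

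SLC2A4RG, the regulator, was the most abundant of the 9 genes in promyelocytes. Its read pairs were 3103, 2551 and 2572 with vehicle and 1886, 2132 and 2620 with TNF-α, and the level went from 42.2 ± 2.82 to 34.1 ± 2.59 FPKM. It fell there by 0.28 on the log2 scale (SE 0.066, edgeR adjusted p = 0.00557). Its exons are 69.7% G and C, the highest of the 9 genes, and with the libraries' trends over GC content and gene length removed the change was −0.12 with an adjusted p of 0.205, in a range of 0.000692 to 0.205 over the alternatives. In granulocytes it had 1392, 1471 and 1653 read pairs with vehicle and 1384, 1570 and 1109 with TNF-α, 23.4 ± 1.55 and 25.1 ± 2.77 FPKM. The granulocyte log2 fold change was 0.09 (SE 0.0639), −0.14 with those trends removed and 0.17 without the third TNF-α library, so its sign there depends on the processing.

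**Figure D1:**
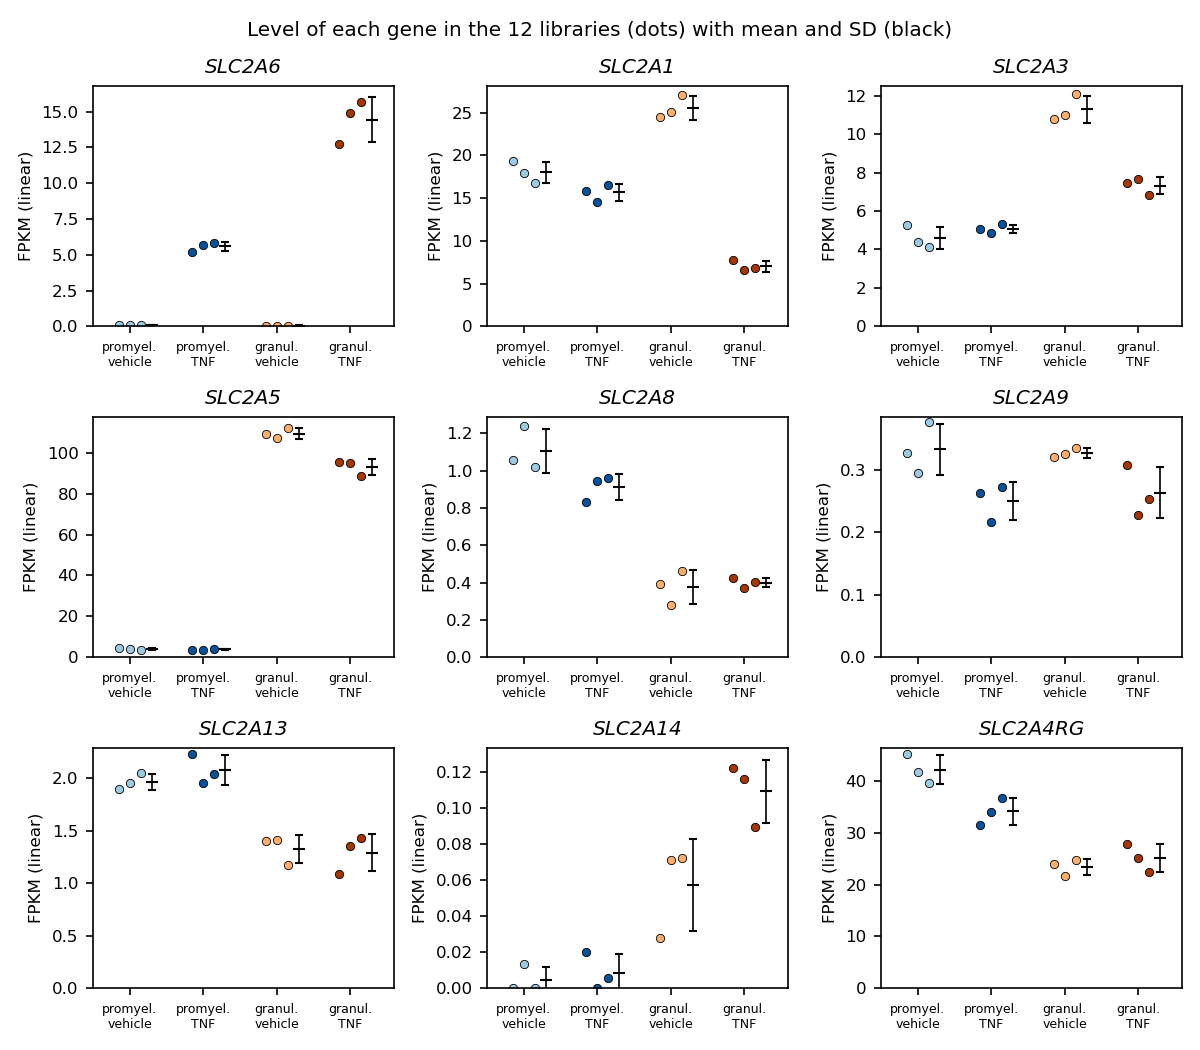
Level of each of the 9 genes in the 12 libraries, 1 panel per gene. The vertical axis is FPKM on a linear scale from 0, coloured dots are libraries, and black marks beside them are the mean and SD of 3 libraries. SLC2A6 is near 0 in the 6 vehicle libraries and at 5.21 to 15.7 FPKM in the 6 TNF-α libraries, and SLC2A5 is at 88.5 to 112 FPKM in the 6 granulocyte libraries.

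Of the 9 genes, 8 passed the filter on low counts in promyelocytes, where SLC2A6 was called higher and SLC2A4RG lower. Over all 16250 genes tested there, 14.8% were called, 8.15% higher and 6.65% lower. The TNF-α and vehicle libraries did not overlap for 5 of the 8 (SLC2A6 higher, and SLC2A1, SLC2A4RG, SLC2A8 and SLC2A9 lower), beside 30.9% of all genes tested. In granulocytes all 9 passed the filter, and under the call rule used for all genes SLC2A6 counted as higher and SLC2A1, SLC2A3 and SLC2A5 as lower, beside 49.2% called over 16944 genes, 24.4% higher and 24.8% lower. The granulocyte groups did not overlap for 6 of the 9, beside 55.1% of genes. The set was chosen on this contrast, so these granulocyte counts are a description and support nothing. The median log2 fold change of the members tested was −0.11 in promyelocytes and −0.05 in granulocytes, and that of all genes −0.01 and −0.00.

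**Figure D2:**
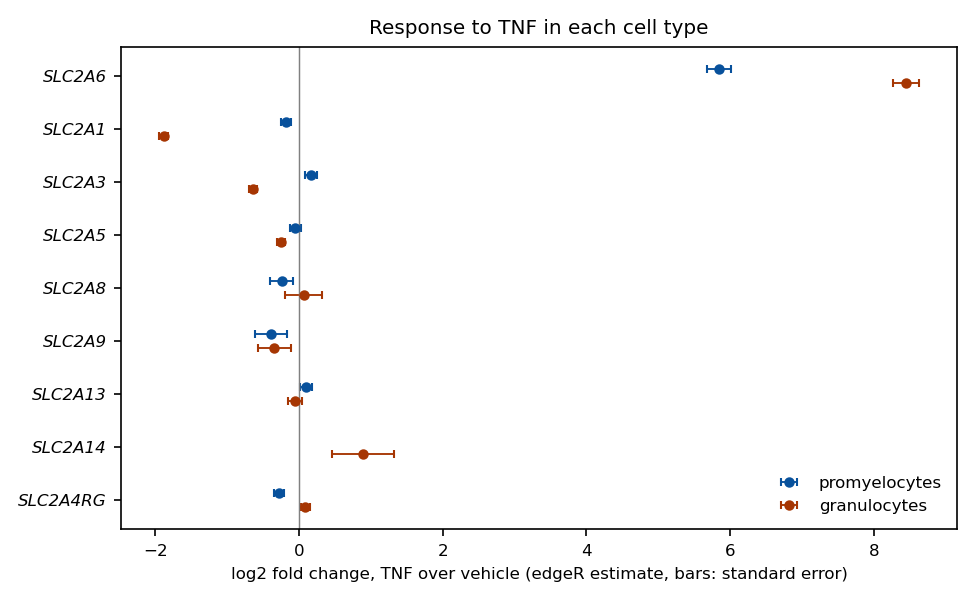
Log2 fold change of TNF-α over vehicle (edgeR estimate, horizontal axis) for each gene in promyelocytes (blue) and granulocytes (brown), with bars of 1 standard error. SLC2A6 is at 5.85 and 8.45, SLC2A1 at −0.18 and −1.88, and SLC2A14 has no promyelocyte value. The bars of SLC2A6 are shorter than its DESeq2 standard errors of 0.29 and 0.427.

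The granulocyte change exceeded the promyelocyte change of SLC2A6 by 2.61 on the log2 scale (SE 0.245). That SE is too small, because it combines the edgeR SEs of SLC2A6, which lie below its DESeq2 SEs of 0.29 and 0.427. For SLC2A1 the difference, granulocytes minus promyelocytes, was −1.70 (SE 0.0891), and for SLC2A3 −0.81 (SE 0.101), where the 2 estimates had opposite signs. SLC2A4RG differed by 0.37 (SE 0.0919) and SLC2A5 by −0.20 (SE 0.0924). For SLC2A8, SLC2A9 and SLC2A13 the differences were 0.32 (SE 0.303), 0.05 (SE 0.313) and −0.15 (SE 0.13). These differences were not tested, because they use the granulocyte libraries on which the set was chosen.

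The order of the 9 levels differed between the 4 groups. In vehicle-treated promyelocytes it ran SLC2A4RG, SLC2A1, SLC2A3, SLC2A5, SLC2A13, SLC2A8, SLC2A9, SLC2A6 and SLC2A14, and only SLC2A3 and SLC2A5 overlapped among neighbours. With TNF-α, SLC2A6 was at place 3, where its range overlapped that of SLC2A3. In vehicle-treated granulocytes SLC2A5 was first, followed by SLC2A1 and SLC2A4RG, which overlapped, then SLC2A3, SLC2A13, SLC2A8 and SLC2A9. SLC2A8 overlapped SLC2A9 in that group, and SLC2A14 and SLC2A6 at the end overlapped too. In TNF-α treated granulocytes the order was SLC2A5, SLC2A4RG, SLC2A6, SLC2A3, SLC2A1, SLC2A13, SLC2A8, SLC2A9 and SLC2A14, with overlap between SLC2A3 and SLC2A1. On the FPKM scale SLC2A6 thus stood above both SLC2A1 and SLC2A3 in that group without overlap. In CPM, without gene length, the levels there were 51 ± 5.44 for SLC2A6, 45 ± 2.69 for SLC2A3 and 33.2 ± 3.02 for SLC2A1. In TNF-α treated promyelocytes SLC2A6 was at 19.8 CPM, below SLC2A3 (31.2), SLC2A5 (25.6) and SLC2A13 (20.8). Its place in the order therefore depends on the scaling by gene length.

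Granulocytes and promyelocytes also differed in the other members. With vehicle the granulocyte level was 2.45-fold that of promyelocytes for SLC2A3 and 1.42-fold for SLC2A1. With TNF-α it was 1.44-fold for SLC2A3, while SLC2A1 was 2.23-fold higher in promyelocytes. SLC2A8 was 2.93-fold higher in promyelocytes with vehicle and SLC2A13 1.48-fold. SLC2A6 was 2.57-fold higher in promyelocytes with vehicle, from 30 and 12 read pairs in all, and 2.58-fold higher in granulocytes with TNF-α. The ranges of SLC2A9 overlapped between the cell types under both treatments.

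Summed over the 14 SLC2A transporter genes of the table, the level was 30.6 ± 2.08 FPKM in vehicle-treated and 33.7 ± 1.64 FPKM in TNF-α treated promyelocytes. In granulocytes the sum was 149 ± 4.87 FPKM with vehicle and 124 ± 3.26 FPKM with TNF-α. SLC2A1 made up 58.9% of the sum in vehicle-treated promyelocytes, 46.5% with TNF-α, and 17.2% and 5.68% in granulocytes. SLC2A5 made up 13.2% and 11.3% in promyelocytes but 73.5% and 74.8% in granulocytes. The share of SLC2A6 went from 0.315% to 16.6% in promyelocytes and from 0.0252% to 11.6% in granulocytes. Computed from CPM, without gene length, its share with TNF-α was 11.1% in promyelocytes and 6.64% in granulocytes. Shares of a sum move together, so a gain of one gene lowers the share of the rest.

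**Figure D3:**
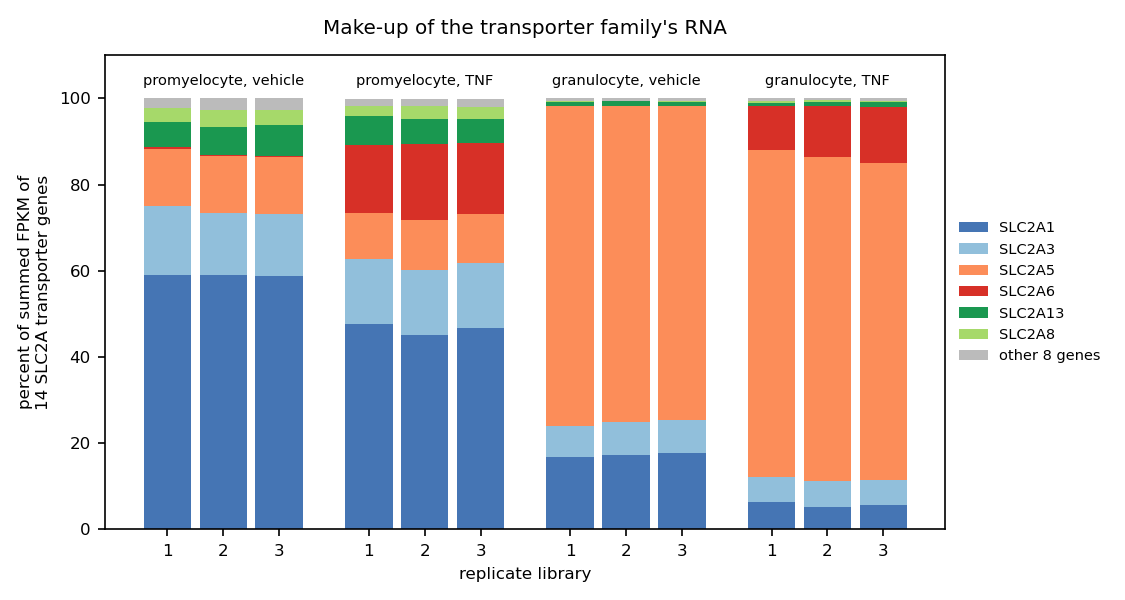
Percent of the summed FPKM of the 14 SLC2A transporter genes taken by each gene, as a stacked bar for each of the 12 libraries. SLC2A6 (red) is at 10.1% to 17.6% with TNF-α and at most 0.366% with vehicle, SLC2A1 (dark blue) is at 58.7% to 59.1% in vehicle-treated promyelocytes, and SLC2A5 (orange) is at 72.9% to 75.9% in granulocytes.

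The other 6 SLC2A genes were low. SLC2A2, the liver and beta cell transporter, was at 0 read pairs in every library, and SLC2A7, SLC2A10 and SLC2A12 had at most 4. SLC2A4, the insulin-responsive transporter of muscle and fat, had 8 to 28 read pairs in promyelocyte and 0 to 1 in granulocyte libraries. Its promyelocyte log2 fold change was −0.46 (SE 0.379, edgeR adjusted p = 0.488). SLC2A11 fell with TNF-α in granulocytes by 0.62 on the log2 scale (SE 0.173, edgeR adjusted p = 0.00303), from 95 to 135 read pairs with vehicle to 57 to 72. In promyelocytes its value was −0.46 (SE 0.275, adjusted p = 0.304).

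Beyond the members, 40 genes of sugar uptake were listed: those 6, 13 other sugar and inositol carriers, 11 sugar kinases and phosphatases, and 10 regulators of hexose transporters. In each cell type 26 of the 40 could be tested. In promyelocytes 6 were lower and 0 higher (edgeR quasi-likelihood test), with a median log2 fold change of −0.13, beside 6.65% lower and 8.15% higher and a median of −0.01 over all genes tested. In granulocytes 15 were lower and 6 higher, with a median of −0.24, beside 24.8% lower, 24.4% higher and a median of −0.00 over all genes. Of these lists, ARRDC4 is named by a rule on the size of its change, and the other genes after their values were seen. The lists themselves were chosen with earlier results of these data known.

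Among the regulators, the 3 alpha-arrestins, adaptors that draw transporters off the cell surface, moved in different directions in granulocytes. ARRDC4 rose, from 668, 806 and 762 read pairs with vehicle to 1505, 1773 and 1480 with TNF-α. Its log2 fold change of 1.33 (SE 0.0589, edgeR adjusted p = 6.81e-21) was the largest of the 26. TXNIP fell by 0.71 (SE 0.0488, adjusted p = 3.78e-15) and ARRDC3 by 0.40 (SE 0.101, adjusted p = 0.00112). In promyelocytes TXNIP fell by 0.25 (SE 0.0585, adjusted p = 0.00583), while ARRDC4 was at 0.11 (SE 0.0887, adjusted p = 0.479) and ARRDC3 at 0.06 (SE 0.115, adjusted p = 0.769). Of the GTPase-activating proteins that hold transporter vesicles inside the cell, TBC1D4 fell in both cell types, by 0.32 (SE 0.0634, adjusted p = 0.0014) in promyelocytes and 0.90 (SE 0.0781, adjusted p = 2.87e-12) in granulocytes. TBC1D1 fell in granulocytes by 0.46 (SE 0.0473, adjusted p = 1.86e-10).

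The sugar-sensing transcription factor MLXIP (MondoA) fell by 0.26 in promyelocytes (SE 0.069, edgeR adjusted p = 0.0124) and by 0.46 in granulocytes (SE 0.0541, adjusted p = 3.81e-09). MEF2D, a factor of the MEF2 family, fell by 0.38 and 0.28 (adjusted p = 0.000272 and 0.00081). MEF2A of the same family went the other way in granulocytes, higher by 0.31 (SE 0.0513, edgeR adjusted p = 3.3e-06). MLX also rose there, by 0.17 (SE 0.0512, adjusted p = 0.00577). Neither MEF2A nor MLX was called in promyelocytes (adjusted p = 0.212 and 0.0848). In all, 4 of 9 regulators tested were lower and 0 higher in promyelocytes, and 6 of 10 were lower and 3 higher in granulocytes. Over all genes, 6.65% were lower and 8.15% higher in promyelocytes, and 24.8% and 24.4% in granulocytes.

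Of the sugar kinases and phosphatases, which trap or release sugars inside the cell, 1 of 9 tested was lower in promyelocytes. This was KHK, the fructose kinase, at −0.49 (SE 0.144, edgeR adjusted p = 0.025). In granulocytes 6 were lower and 1 higher. Over all genes tested, 6.65% were lower and 8.15% higher in promyelocytes, and 24.8% and 24.4% in granulocytes. HK2, a hexokinase, fell by 0.56 (SE 0.056, adjusted p = 8.23e-11) and HK1 by 0.38 (SE 0.0631, adjusted p = 3.25e-06). PFKFB3, which makes an activator of glycolysis, rose by 0.68 (SE 0.0526, adjusted p = 1.03e-13), and PFKFB4 fell by 0.99 (SE 0.356, adjusted p = 0.0195). The value of PFKFB4 rests on few read pairs, 26 to 36 per library with vehicle and 8 to 20 with TNF-α. Of the 6 other carriers tested, 2 were higher and 2 lower in granulocytes, beside 49.2% of all genes called there. In granulocytes SLC37A2, a sugar phosphate exchanger, fell by 0.99 (SE 0.166, adjusted p = 4.45e-06) and SLC37A1 rose by 0.40 (SE 0.0764, adjusted p = 4.06e-05). The inositol carrier SLC5A3 rose there by 0.17 (SE 0.0489, adjusted p = 0.00358), while in promyelocytes SLC45A4 was the 1 carrier that was called, at −0.35 (SE 0.0943, adjusted p = 0.0142).

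**Figure D4:**
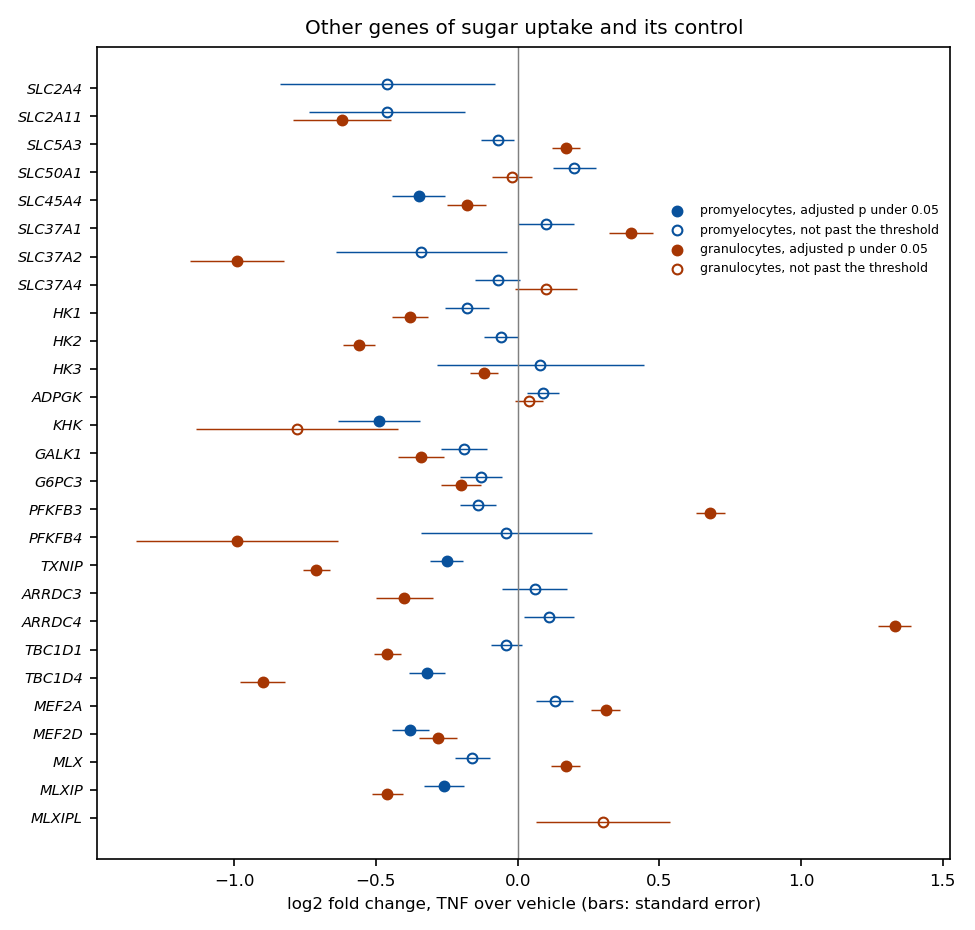
Log2 fold change of TNF-α over vehicle (horizontal axis, bars of 1 standard error) for the genes of the 4 lists tested in promyelocytes (blue) or granulocytes (brown). Filled circles have an adjusted p under 0.05. In promyelocytes the 6 filled circles are left of 0, and ARRDC4 in granulocytes is farthest right at 1.33.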

How the data were processed

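RNA of 12 HL-60/S4 libraries was sequenced as paired ends after removal of ribosomal RNA. The authors aligned the reads to hg38 with STAR 2.5.3a and counted read pairs per gene (GENCODE annotation, stranded, primary alignments) with featureCounts 1.5.2. The deposited values are raw counts without normalization, and the deposited table also holds each gene's exonic length. The submitters' processing notes also name FastQC 0.11.4 and DESeq2 1.16.1.

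The members and the gene lists were chosen with earlier results of these data known. Symbols came from a GENCODE annotation of the same build and were found for 57577 of 58288 identifiers. Groups were taken from the labels. Promyelocyte and granulocyte libraries were fitted apart, with edgeR 4.0.16 under R 4.3.3 (TMM, filterByExpr with a minimum count of 10 and a minimum total of 15, quasi-likelihood test, Benjamini-Hochberg adjustment over all genes tested, threshold 0.05). FPKM were computed from the counts, the deposited lengths and TMM library sizes over all 12 libraries. The SE of an edgeR value is its absolute log2 fold change over the square root of the F statistic, which can understate the error at few read pairs. Likeness of pattern was Pearson's r of log2(CPM + 0.5). The fit was tested on simulated data. The pair of libraries of 1 group with the smallest difference still differed by 3.59 times the sampling noise (chi-square per degree of freedom), so none was counted as a duplicate. With 3 libraries against 3 an exact permutation test cannot go below p = 0.1, so none was used.

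The alternatives were DESeq2's size factors, no filter, DESeq2 1.42.0, a replicate block, 1 fit over all 12 libraries, removal of GC and length trends (splines of 5 degrees of freedom) and each library left out in turn. The genes named were the 9 members, any list gene called with a log2 fold change of at least 1 in size, the 5 genes most alike in pattern to each of SLC2A6, SLC2A1 and SLC2A3, and the 2 genes on either side of SLC2A6 in the granulocyte order. Genes named beyond that rule were chosen after their values were seen. Promoter sequences are from RefSeq (GRCh38.p14), and 8 of the 9 members matched. SLC2A3 did not. Counting intervals and floors cover counting error only. Tables were handled with pandas 2.3.3 and scipy 1.17.1 and plots drawn with matplotlib 3.10.9.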

Additional observations from a re-analysis of the deposited data

How the results depend on the processing

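The number of members called in promyelocytes was 2 as reported and 1 with the GC and length trends removed, where SLC2A4RG was lost. That fit differs from the reported one only in these trends, and the reason for them was not tested. Under the other alternatives the counts of members and of list genes called stayed within 1.5 times the reported ones. With each library omitted in turn there were 2 to 3 members called in promyelocytes and 4 to 5 in granulocytes, and 4 to 7 and 18 to 20 list genes. DESeq2 called 17 list genes in granulocytes, where edgeR called 21. Vehicle and TNF-α libraries with the same replicate number did not deviate together (correlations of −0.105 to −0.00594). This shows no shared deviation by number, but it cannot tell whether flasks were handled in numbered pairs. With the replicate block 2 members were called in promyelocytes and 4 in granulocytes. The log2 fold change of SLC2A6 ran from 5.82 to 5.93 in promyelocytes and from 8.28 to 8.51 in granulocytes over the 6 alternatives that keep all libraries, and that of SLC2A1 in granulocytes from −1.95 to −1.86. Besides the SLC2A4RG call lost, 5 calls of members were gained: SLC2A1 in promyelocytes under 2 alternatives, SLC2A3 in promyelocytes under 1, and SLC2A4RG in granulocytes under 2, with opposite signs (−0.14 without the GC and length trends, 0.17 without the third TNF-α library). Depth limits SLC2A14 and the vehicle level of SLC2A6, which rest on at most 18 and 13 read pairs per library.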
